A study of Mus musculus with 16 samples.

Results

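The galectin genes described here are Lgals1, Lgals3, Lgals8 and Lgals9. They were taken by their symbols and not by a measured value, and all 4 had a row among the 17951 genes of the deposited table. Microglia were sorted as cells positive for Cd11b and Cd45, and by the study's methods also for Cx3cr1, from the brains of mice injected with Methoxy-X04 (Me-X04), a dye that enters the brain and stains amyloid, and their RNA was sequenced in bulk. The strain of every library is given as 5xFAD, a line in which mutant human amyloid precursor protein and presenilin transgenes are driven in neurons by the Thy1 promoter. WT microglia (7 libraries, from mice labelled 2 months old) came from mice without the transgenes and were Me-X04 negative. TG Me-X04- microglia (5 libraries) and TG Me-X04+ microglia (4 libraries) were the dye-free and dye-laden fractions of transgenic mice labelled 6 months old, and the TG Me-X04+ libraries came from animals that also gave a TG Me-X04- library. By the labels age differed together with genotype, so that both cannot be told apart in a comparison with WT, and the methods of the study give another age for the animals.

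Galectins are small lectins that bind beta-galactosides, above all the N-acetyllactosamine units of branched N-glycans. They are made in the cytosol without a signal peptide and leave the cell by an unconventional route, after which they bridge glycoproteins at the cell surface. Inside the cell, galectin-3, galectin-8 and galectin-9 collect on endosomes and lysosomes whose membrane has been breached, because the breach exposes luminal glycans. Galectin-1 is a dimer of single lectin domains, galectin-3 carries one lectin domain behind a long repeat tail, and galectin-8 and galectin-9 each join a pair of lectin domains by a linker. In the brain, galectin-3 is known as a product of activated microglia, including those around amyloid plaques.

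Levels are given as log2 RPKM, reads scaled to gene length and library size on the log2 scale. Levels of different genes can be compared only as far as the length used for each gene is that of its transcripts. The reads behind each value were recovered from the table. The libraries held 15623664 to 22119327 reads on the listed genes in WT, 17216633 to 25184600 in TG Me-X04- and 22430251 to 27579017 in TG Me-X04+. Microglia identity was high throughout: all 10 microglia markers had reads in every library, with a summed level of 4715 to 8619 RPKM. None of 7 T and NK cell markers was listed, and the 4 listed of 8 monocyte markers summed to at most 10.6 RPKM. The 3 listed of 5 astrocyte markers summed to 8.75 to 29.1 RPKM, with Slc1a3 the highest at 8.24 to 29.1. The 3 listed of 7 markers of endothelial cells and pericytes summed to 1.17 to 12.6 RPKM. Listed markers of oligodendrocytes, dendritic cells, B cells and neurons summed to at most 7.00, 7.72, 4.34 and 1.87 RPKM. Neutrophil and border macrophage markers are given below. The libraries fell into 2 sets along the first principal component of their deviations from the group means, which held 37.8% of that variance. Set A held WT 1 to 3, TG Me-X04- 1 and 2, and TG Me-X04+ 1 and 2, and set B the other 9 libraries. The study names a pair of sequencers for these samples without saying which library was run on which, so the sets are called only sets. Genes without a read were more frequent in set A (503 to 1831 genes per library) than in set B (55 to 524). The mitochondrial share of reads was highest in the TG Me-X04+ libraries of set A (41.4% and 44.8%) and was 27.2% and 28.0% in those of set B. Values by set are given below for each galectin and its listed relatives, though not for every comparison.

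On GRCm38, Lgals9 lies on the minus strand of chromosome 11 (78962974 to 78984946) and Lgals8 on the minus strand of chromosome 13 (12439415 to 12464944). Lgals1 lies on the plus strand of chromosome 15 (78926725 to 78930465) and Lgals3 on the plus strand of chromosome 14 (47367751 to 47386160). All are annotated as protein coding. The 3′ end of Lgals8 overlaps the end of Heatr1, which lies on the plus strand, by 875 bases, and since the use of strand in counting is not stated, reads from this stretch may belong to either gene. The promoter of Lgals9 is shown because Lgals9 was the galectin with the highest level in all 3 groups and because, of the 3 members with a RefSeq promoter sequence (Lgals3, Lgals8 and Lgals9), it was the one that held any of the motifs searched. It covers 250 bases before to 50 bases after the RefSeq start of the gene (GRCm38.p6, chr11:78984875-78985174, minus strand, written 5′ to 3′ on the strand of the gene). Capitals mark the matches.

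Lgals9 promoter: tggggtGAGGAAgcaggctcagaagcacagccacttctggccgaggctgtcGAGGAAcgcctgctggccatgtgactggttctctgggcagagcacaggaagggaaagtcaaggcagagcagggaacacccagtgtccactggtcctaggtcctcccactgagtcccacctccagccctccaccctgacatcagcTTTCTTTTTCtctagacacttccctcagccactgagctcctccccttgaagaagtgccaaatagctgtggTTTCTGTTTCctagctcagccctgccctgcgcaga

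The 4 motifs were searched on both strands. The interferon response core, GAAA and again GAAA after any 2 bases, matched at 2 places, as its reverse complement, from positions -55 and 15 relative to the start, and 3.44% of the 32851 RefSeq mouse promoters of the same length held at least 1 such match. The core of sites for PU.1, GAGGAA, matched at positions -244 and -199, and 28.3% of the promoters held it. The E-box CACGTG, held by 7.15% of promoters, and the AP-1 motif TGANTCA, held by 7.81%, did not match in the Lgals9 window, and none of the 4 motifs matched in the windows of Lgals3 and Lgals8. A match is a run of letters and not evidence of binding, and the absence of one says only that the letters are not in this window.

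The mRNA pool of the 4 galectins was made up almost wholly of Lgals9 and Lgals8, the members with a pair of lectin domains. They gave at least 96.3% of the summed RPKM of the 4 genes in every library. That sum ranged from 69.9 to 117 RPKM over the 16 libraries. Lgals9 averaged 5.55 ± 0.39 log2 RPKM in WT (SD, n = 7), 5.84 ± 0.20 in TG Me-X04- (n = 5) and 5.68 ± 0.63 in TG Me-X04+ (n = 4). Lgals8 averaged 5.26 ± 0.28, 4.94 ± 0.24 and 5.07 ± 0.42 log2 RPKM in the same order. By these means Lgals9 ranked 481st, 366th and 626th among the 17951 genes and Lgals8 604th, 799th and 971st. Lgals1 and Lgals3 lay far lower, between -3.45 and -0.67 log2 RPKM in each group, which corresponds to 0.0916 to 0.630 RPKM as a geometric mean.

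None of the 4 galectins was DE in any of the 3 comparisons. A gene is called DE here when its Benjamini-Hochberg adjusted p from a limma fit across all genes was under 0.05 and its log2FC at least 0.7 in size. At an unadjusted p under 0.05 there were 0, 1 and 1 of the 4 in TG Me-X04+ against TG Me-X04-, TG Me-X04- against WT and TG Me-X04+ against WT, and limma voom on the recovered reads also called none. Among all genes, 5.49% were DE in TG Me-X04+ against TG Me-X04-, 0.201% in TG Me-X04- against WT and 14.3% in TG Me-X04+ against WT. No galectin had groups whose libraries did not overlap, which 7.93%, 1.06% and 10.5% of all genes had in the same comparisons. The median log2FC of the 4 was 0.07, -0.01 and 0.45 beside -0.09, 0.01 and -0.11 over all genes. A p that misses the threshold does not show that a level stayed the same, and the interval of each difference is given below.

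**Figure D1:**
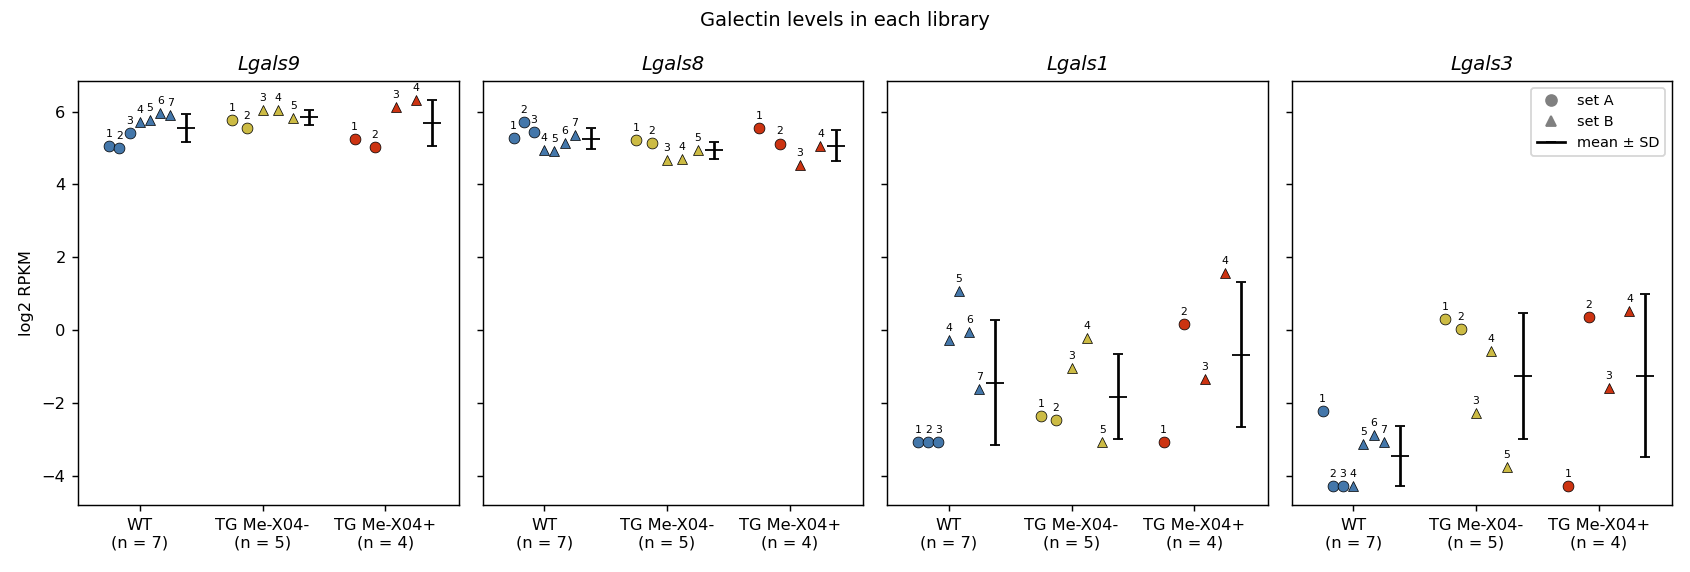
Level of each galectin in each library (vertical axis, log2 RPKM) by group, with the replicate number above each point. Circles are libraries of set A and triangles those of set B, and the black bar is the group mean ± SD. Lgals9 and Lgals8 lay between 4.53 and 6.31 log2 RPKM in every library, and Lgals1 and Lgals3 lay at or below 1.58, with libraries without a read at -3.06 (Lgals1) and -4.28 (Lgals3).

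Lgals9 encodes galectin-9, a ligand of the inhibitory receptor Tim-3. The WT libraries ranged from 5.00 through a median of 5.71 to 5.97 log2 RPKM, on 1133 to 3374 reads. The TG Me-X04- libraries 1 to 5 had 5.76, 5.56, 6.03, 6.04 and 5.83 log2 RPKM, and the TG Me-X04+ libraries 1 to 4 had 5.25, 5.04, 6.12 and 6.31. The TG Me-X04- libraries were close together, whereas the TG Me-X04+ libraries stood in 2 pairs on either side of most of the others. TG Me-X04+ against TG Me-X04- gave a log2FC of -0.16 (SE 0.28, 95% interval -0.75 to 0.42, limma adjusted p = 0.810). TG Me-X04- against WT gave 0.30 (SE 0.24, interval -0.21 to 0.80, adjusted p = 0.999), and TG Me-X04+ against WT gave 0.13 (SE 0.26, interval -0.41 to 0.68, adjusted p = 0.793).

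The pairs of TG Me-X04+ libraries were those of the 2 sets. In set A, both TG Me-X04- libraries (5.76 and 5.56) lay above the 3 WT libraries (5.07, 5.00 and 5.40) and above both TG Me-X04+ libraries (5.25 and 5.04). In set B, both TG Me-X04+ libraries (6.12 and 6.31) lay above the 4 WT libraries (5.71 to 5.97) and above the 3 TG Me-X04- libraries (6.03, 6.04 and 5.83). Within animals, Lgals9 was lower in the Me-X04+ than in the Me-X04- fraction of animals 1 and 2, by -0.51 and -0.52 log2, and higher in animals 3 and 4, by 0.09 and 0.27. In a limma fit with a separate difference for each set, TG Me-X04+ against TG Me-X04- was -0.51 in set A (SE 0.17, adjusted p = 0.0819) and 0.25 in set B (SE 0.16, adjusted p = 0.440). The difference between the sets was -0.76 (SE 0.24, unadjusted p = 0.00569, adjusted p = 0.239), and it did not pass the threshold, which 6 of 17951 genes did. TG Me-X04- against WT was 0.50 in set A (SE 0.16, adjusted p = 0.109) and 0.13 in set B (SE 0.13, adjusted p = 1.00). TG Me-X04+ against WT was -0.01 in set A (SE 0.16, adjusted p = 0.974) and 0.38 in set B (SE 0.15, adjusted p = 0.127). The part of the mitochondrial share of reads and of genes without reads, which moved with the sets, was not tested. With library sizes taken from non-mitochondrial reads, the median log2FC of all genes in TG Me-X04+ against WT moved from -0.11 to -0.39, and Lgals9 turned from 0.13 to -0.17. With quantile normalization Lgals9 was -0.34, beside a median of -0.08.

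Lgals8 encodes galectin-8, which marks breached endosomes and lysosomes and hands them to the autophagy receptor NDP52. The WT libraries ranged from 4.93 through a median of 5.29 to 5.71 log2 RPKM, on 2372 to 3655 reads. The TG Me-X04- libraries 1 to 5 had 5.21, 5.13, 4.68, 4.71 and 4.95 log2 RPKM, and the TG Me-X04+ libraries 1 to 4 had 5.56, 5.12, 4.53 and 5.05. All groups overlapped, and the highest library was a WT library and the lowest a TG Me-X04+ library. TG Me-X04+ against TG Me-X04- gave a log2FC of 0.13 (SE 0.22, 95% interval -0.34 to 0.60, limma adjusted p = 0.810). TG Me-X04- against WT gave -0.32 (SE 0.19, interval -0.73 to 0.09, adjusted p = 0.999), and TG Me-X04+ against WT gave -0.19 (SE 0.21, interval -0.63 to 0.24, adjusted p = 0.610). The first of these turned to -0.24 with quantile normalization and to -0.26 with library sizes from non-mitochondrial reads, under which the median of all genes was -0.46. Within sets, TG Me-X04- against WT was -0.31 in each of the sets. The difference between the sets was 0.01 (SE 0.27).

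Which of the 2 abundant galectins had the higher level varied between libraries. This order rests on the lengths used, 2137 bases for Lgals9 and 3688 for Lgals8. In total reads Lgals8 had more than Lgals9 in WT (20347 and 15678). It had fewer in TG Me-X04- (12655 and 14281) and in TG Me-X04+ (9050 and 9523). Lgals9 was above Lgals8 in 11 of 16 libraries: 4 of 7 WT, 5 of 5 TG Me-X04- and 2 of 4 TG Me-X04+. By set, Lgals9 was the higher in 2 of 7 libraries of set A and in 9 of 9 of set B. The level of Lgals8 minus that of Lgals9 averaged -0.29 ± 0.61 log2 in WT (SD, n = 7), -0.91 ± 0.43 in TG Me-X04- (n = 5) and -0.61 ± 0.95 in TG Me-X04+ (n = 4). The means in WT and TG Me-X04+ were smaller than their spread. The balance did not differ past the threshold between groups, the largest difference being -0.62 from WT to TG Me-X04- (exact two-sided permutation test, p = 0.0707, adjusted p = 0.218 over 18 tests of pairs of galectins). That test took no account of the sets. In set A, Lgals9 minus Lgals8 was 0.55 and 0.43 in TG Me-X04-, above WT (-0.22, -0.71 and -0.03). In set B it was 1.35, 1.33 and 0.89 in TG Me-X04-, above WT (0.54 to 0.84). TG Me-X04+ had -0.31 and -0.08 in set A and 1.59 and 1.26 in set B. The balance was not tested within sets.

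Lgals3 was a gene with few reads in these cells, and its level varied more between libraries than its group means did. It encodes galectin-3, which is secreted by activated macrophages and microglia and is a reported ligand of Trem2. The WT libraries had 0 to 5 reads, with a median of 3 and a total of 15 reads over the 7 libraries. The TG Me-X04- libraries 1 to 5 had 36, 36, 8, 29 and 1 reads, and the TG Me-X04+ libraries 1 to 4 had 0, 34, 12 and 61. In each TG group all libraries but 1 had more reads than any WT library, and the exceptions were TG Me-X04- 5 and TG Me-X04+ 1. A count of 0 allows up to 3 reads, and this limit and the read numbers carry counting error only. On the log2 scale the levels averaged -3.45 ± 0.83 in WT (SD, n = 7), -1.26 ± 1.72 for TG Me-X04- (n = 5) and -1.25 ± 2.24 for TG Me-X04+ (n = 4).

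For Lgals3, TG Me-X04- against WT gave a log2FC of 2.19 (SE 0.85, 95% interval 0.39 to 3.99, unadjusted p = 0.0198, limma adjusted p = 0.783). TG Me-X04+ against WT gave 2.20 (SE 0.91, interval 0.28 to 4.13, unadjusted p = 0.0273, adjusted p = 0.121). Lgals3 was the one galectin with an unadjusted p under 0.05 in these comparisons, a level that 929 and 4995 genes reached, and it failed the adjustment in both. Without TG Me-X04+ 1, the library without an Lgals3 read, TG Me-X04+ against WT was 3.21 (SE 0.83, adjusted p = 0.0157) and was called. That library also had no read of Lgals1 and the most listed genes without a read (1831). TG Me-X04+ 2 had 1781 genes without a read, 12 reads of Lgals1 and 34 of Lgals3. The part of the genes without a read in these values was not tested. TG Me-X04+ against TG Me-X04- gave 0.01 (SE 0.98, interval -2.05 to 2.07, adjusted p = 0.997), a value that turned to -0.20 with library sizes from non-mitochondrial reads. It was -0.62 with the replicate block on only the TG libraries, which pairs fractions of the same animal (adjusted p = 0.786), and -0.24 with the block on all libraries, which also ties WT animals to TG animals of the same number (adjusted p = 0.942). Within animals the Me-X04+ fraction was lower in animal 1, by -4.57, and higher in animals 2, 3 and 4, by 0.31, 0.68 and 1.11. Within sets, TG Me-X04- against WT was 3.76 in set A (SE 1.24, adjusted p = 0.125) and 1.13 in set B (SE 1.03, adjusted p = 1.00), and TG Me-X04+ against WT was 1.63 (SE 1.24, adjusted p = 0.371) and 2.81 (SE 1.17, adjusted p = 0.147). Because WT libraries held so few reads, these fitted values depend on the prior that was added to the reads.

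Other myeloid cells can also carry Lgals3 and Lgals1, and some of their markers were listed. The monocyte markers listed (Ccr2, Ms4a4c, Chil3 and Fn1) summed to 2.20 to 4.07 RPKM in WT, 2.39 to 10.6 in TG Me-X04- and 1.86 to 9.60 in TG Me-X04+. The neutrophil markers listed (3 of 8, S100a8, S100a9 and Ngp) summed to 0 to 12.3, 0.0893 to 25.6 and 0 to 20.6 RPKM, and the 7 listed of 8 markers of border macrophages to 16.9 to 39.3, 18.5 to 28.0 and 6.60 to 25.4 RPKM. The border macrophage marker with the highest level was Stab1, which microglia express too, at 2.44 to 34.0 RPKM. Stab1 had 2425 to 8724 reads in WT, 2729 to 6384 in TG Me-X04- and 332 to 1783 in TG Me-X04+. In the same order Mrc1 had 145 to 349, 126 to 386 and 78 to 921, and Lyve1 0 to 27, 6 to 35 and 0 to 249. Cd163 had 0 to 58, 17 to 54 and 0 to 107, and F13a1 0 to 50, 16 to 66 and 14 to 86. Pf4 had 0 to 28, 3 to 42 and 0 to 48, and Cbr2 0 to 18, 0 to 29 and 0 to 12. Of the monocyte markers, Fn1 had 0 to 13 reads in WT, 2 to 92 in TG Me-X04- and 47 to 257 in TG Me-X04+, and Chil3 had 0 to 2, 0 to 173 and 0 to 147. Ms4a4c had 0 to 18, 13 to 104 and 14 to 52. Ccr2, the listed monocyte marker with the highest level, went the other way, with 218 to 465, 194 to 365 and 62 to 178 reads. Cx3cr1, named in the gate, had 21763 to 72974 reads. The part of such cells in the Lgals3 and Lgals1 values was not tested, and in bulk samples fewer cells with a transcript and less transcript per cell cannot be told apart.

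Lgals1, which encodes the dimeric galectin-1, likewise had few reads and no direction shared by the libraries of a group. The WT libraries had 0 to 41 reads with a median of 4, and WT 1 to 3 had none. The TG Me-X04- libraries 1 to 5 had 1, 1, 8, 15 and 0 reads, and the TG Me-X04+ libraries 1 to 4 had 0, 12, 5 and 54. The highest library of each group (TG Me-X04- 4, TG Me-X04+ 4 and WT 5) belonged to set B. TG Me-X04+ against TG Me-X04- gave a log2FC of 1.16 (SE 1.02, 95% interval -0.98 to 3.30, limma adjusted p = 0.600). TG Me-X04- against WT gave -0.39 (SE 0.89, interval -2.26 to 1.48, adjusted p = 0.999), and TG Me-X04+ against WT gave 0.77 (SE 0.95, interval -1.24 to 2.77, adjusted p = 0.661). Within animals the Me-X04+ fraction was higher in animals 2 and 4, by 2.62 and 1.79, and lower in animals 1 and 3, by -0.71 and -0.30. By set, TG Me-X04- against WT was 0.66 in set A (SE 1.10) and -1.23 in set B (SE 0.92), with opposite signs, and the difference between the sets of 1.89 (SE 1.44, adjusted p = 0.716) did not pass the threshold. Each of the 3 intervals includes 0. Between the fractions the log2FC was 0.41 without TG Me-X04+ 4 and 1.96 without TG Me-X04+ 1, and against WT it was 0.020 and 1.57 without the same libraries, the lowest and highest values without 1 library.

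The level of Lgals1 relative to Lgals3 did not differ past the threshold between groups. A library without reads of both genes still has a difference, since 0 reads stand at -3.06 for Lgals1 and at -4.28 for Lgals3. Lgals1 minus Lgals3 averaged 2.01 ± 1.79 log2 in WT (SD, n = 7), -0.57 ± 1.85 in TG Me-X04- (n = 5) and 0.58 ± 0.66 in TG Me-X04+ (n = 4), so that only the WT mean exceeded its SD. The change from WT to TG Me-X04- was -2.58 (exact two-sided permutation test, p = 0.0455, adjusted p = 0.218). Of the 18 comparisons of pairs of galectins between groups, the smallest p was for Lgals3 against Lgals8 in TG Me-X04- and WT, with a difference of 2.51 (exact permutation p = 0.0177, adjusted p = 0.218), and none passed the adjustment. The step from TG Me-X04- to TG Me-X04+ also did not differ past the threshold from the step from WT to TG Me-X04- for any galectin: the second step minus the first was 1.55 for Lgals1, -2.18 for Lgals3, 0.45 for Lgals8 and -0.46 for Lgals9 (limma adjusted p = 0.978 for each). No gene of the 17951 passed that test.

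**Figure D2:**
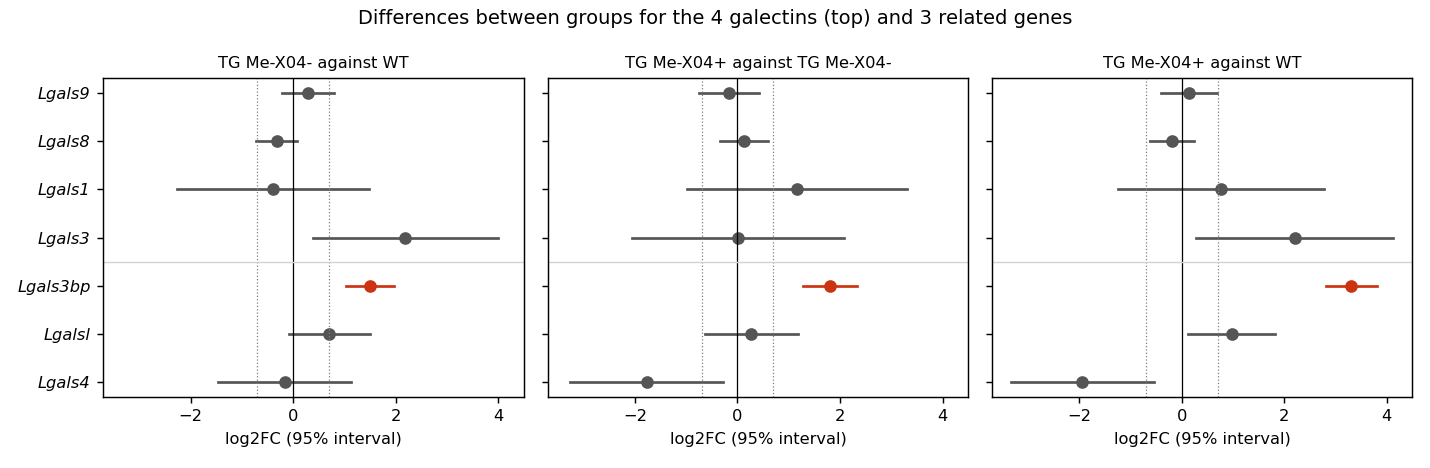
Differences between groups (horizontal axis, log2FC) with 95% intervals for the 4 galectins, above the grey line, and for Lgals3bp, Lgalsl and Lgals4, below it, in the 3 comparisons. Red marks DE genes and dotted lines the log2FC threshold of 0.7. The intervals of Lgals8 and Lgals9 are short and include 0, those of Lgals1 and Lgals3 are wide, and Lgals3bp alone is DE, at 1.50, 1.81 and 3.31.

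Of 8 other genes of the galectin family and its named relatives, 3 were listed: Lgals3bp, Lgals4 and Lgalsl. Lgals3bp was DE in all 3 comparisons. It encodes a secreted, heavily glycosylated scavenger receptor domain protein that binds galectin-3 and galectin-1, and is not itself a lectin. The WT libraries ranged from 4.09 through a median of 4.47 to 4.65 log2 RPKM, the TG Me-X04- libraries 1 to 5 had 6.47, 5.87, 5.96, 6.32 and 5.20, and the TG Me-X04+ libraries 1 to 4 had 7.13, 8.07, 8.02 and 7.87. No library of one group overlapped another group. TG Me-X04- was above WT by a log2FC of 1.50 (SE 0.22, 2.83-fold, limma adjusted p = 0.00373), and TG Me-X04+ was above TG Me-X04- by 1.81 (SE 0.25, 3.51-fold, adjusted p = 0.000625) and above WT by 3.31 (SE 0.23, 9.91-fold, adjusted p = 9.24e-08). With quantile normalization the difference between the TG fractions was 1.13 (adjusted p = 0.0102). Its step from TG Me-X04- to TG Me-X04+ exceeded that from WT by 0.31 (SE 0.41, adjusted p = 0.978), so the steps could not be told apart in size. Within sets the rise from TG Me-X04- to TG Me-X04+ was 1.43 in set A (SE 0.35) and 2.12 in set B (SE 0.32), and within animals it was 0.66, 2.20, 2.06 and 1.55. The rise from WT to TG Me-X04- was 1.73 in set A (SE 0.32, adjusted p = 0.0116) and 1.34 in set B (SE 0.26, adjusted p = 0.0821), which was not called in set B by itself.

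The other relatives did not pass the test. Lgals4, a galectin of gut epithelium, had 4 to 53 reads in WT, 10 to 61 in TG Me-X04- and 0 to 15 in TG Me-X04+, and was lower in the Me-X04+ fraction of 4 of 4 animals. Its log2FC was -1.77 against TG Me-X04- (SE 0.71, limma adjusted p = 0.171) and -1.94 against WT (SE 0.66, adjusted p = 0.0575). Without any one of WT 2, TG Me-X04+ 3 or TG Me-X04+ 4 the difference from WT was called, at -2.27 (adjusted p = 0.0180), -2.30 (0.0418) and -2.29 (0.0410). It was also called with no variance trend (-1.94, adjusted p = 0.0491), with median centring (-1.92, 0.0479), with library sizes from non-mitochondrial reads (-2.09, 0.0434) and with a term for the sets (-1.87, 0.0278). By set, Lgals4 in TG Me-X04+ against WT was -2.83 in set A (SE 0.84, adjusted p = 0.0238) and -1.01 in set B (SE 0.79, 0.493). The difference between the sets was -1.82 (SE 1.15, adjusted p = 0.540). Lgalsl, which encodes a galectin-related protein, had 27 to 107 reads over all libraries, and its log2FC was 0.27 against TG Me-X04- (adjusted p = 0.794) and 0.98 against WT (SE 0.40, adjusted p = 0.119) in TG Me-X04+. Without WT 2 the latter was called, at 1.17 (adjusted p = 0.0468). By set it was 0.50 in set A (SE 0.49, adjusted p = 0.496) and 1.30 in set B (SE 0.47, 0.0886).

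**Figure D3:**
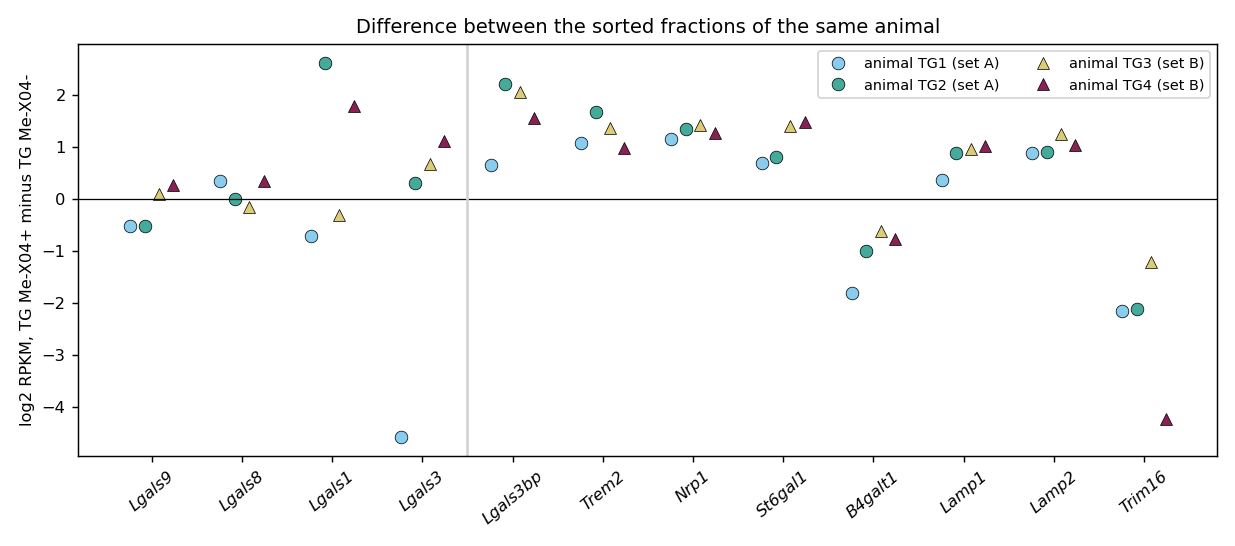
Difference in log2 RPKM between the TG Me-X04+ and the TG Me-X04- fraction of the same animal (vertical axis) for the 4 galectins, left of the grey line, and for the 8 DE genes among their relatives, partners and enzymes, right of it. Circles are animals in set A and triangles those in set B. The 8 genes at the right were chosen by this same comparison of groups, and the animals differ in sign for each of the 4 galectins.

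The pathway around the galectins was followed in 5 lists with 50 genes, of which 42 were listed. In TG Me-X04+ against TG Me-X04-, 6 rose and 2 fell, beside 3.44% of all genes called higher and 2.06% called lower. This split moved with the scaling: it was 3 higher and 5 lower with quantile normalization, beside 421 and 407 of all genes, and 4 and 6 with library sizes from non-mitochondrial reads, beside 250 and 905 of all genes in place of 617 and 369. In TG Me-X04- against WT, 1 rose (0.189% of all genes) and 0 fell (0.0111%), namely Lgals3bp. By limma 929 of all genes reached an unadjusted p under 0.05 in this comparison and 36 were DE. In TG Me-X04+ against WT, 7 rose (8.25%) and 5 fell (6.02%). Here the split was 5 higher and 9 lower with quantile normalization, beside 1380 and 1186 of all genes, and 7 and 8 with library sizes from non-mitochondrial reads, beside 1021 and 1996 in place of 1481 and 1081. The median log2FC over the 42 genes was 0.05, 0.01 and 0.15, beside -0.09, 0.01 and -0.11 over all genes. The lists were chosen with results of these data known, and the counts are a description.

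The branched glycans that galectins bind are built by enzymes of which 11 were listed. They serve N-glycan branching, O-glycan branching (Gcnt1) and N-acetyllactosamine extension. B4galt1 fell in TG Me-X04+ against TG Me-X04- and 10 did not pass the test. Of these, Mgat4a had -0.51 (limma adjusted p = 0.0779) and Gcnt1 -0.42 (0.233). Both were called with quantile normalization, at -0.77 (adjusted p = 0.00948) and -0.92 (0.00485). They were also called with library sizes from non-mitochondrial reads, at -0.90 (0.00479) and -0.81 (0.00496), beside a median of -0.46 over all genes. The log2FC was above 0 for 3 of the 11, and the median was -0.25, beside -0.09 over all genes. B4galt1, the main galactosyltransferase that completes N-acetyllactosamine, had 932 to 3262 reads in TG Me-X04+ and 4075 to 6413 in TG Me-X04-, without overlap in level, a log2FC of -1.08 (SE 0.25, limma adjusted p = 0.0166). WT had 1848 to 6409 reads and overlapped both. B4galt1 was -0.63 in TG Me-X04+ against WT (SE 0.23, adjusted p = 0.0766) and 0.45 in TG Me-X04- against WT (SE 0.22, 0.985). The former was called with library weights (-0.71), quantile normalization (-0.97), library sizes from non-mitochondrial reads (-0.94) and without WT 1 (-0.74). B4galt4, a related enzyme, had -0.73 (SE 0.32, adjusted p = 0.218) and was called with the replicate block, at -0.89 (adjusted p = 0.0341, and 0.0383 on only the TG libraries), with library sizes from non-mitochondrial reads, at -1.12 (0.0265), and with a term for the sets, at -0.79 (0.0288). Against WT, Mgat4a, a branching enzyme, fell by 0.93 on the log2 scale (SE 0.15, adjusted p = 0.000358), and B4galt4 by 1.14 (SE 0.30, adjusted p = 0.0142), the latter with an adjusted p of 0.0536 without TG Me-X04+ 4. Mgat5, whose branches carry the preferred ligands of galectin-3, had -0.25 against TG Me-X04- (SE 0.21, 95% interval -0.70 to 0.19, adjusted p = 0.577).

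Among 8 sialyltransferases and sialidases, St6gal1 alone passed the test. It adds alpha-2,6-linked sialic acid to N-acetyllactosamine, a cap known to block binding of galectin-1. St6gal1 had 1107 to 2309 reads in TG Me-X04+, 837 to 982 in TG Me-X04- and 410 to 1204 in WT. It rose by a log2FC of 1.15 in TG Me-X04+ against TG Me-X04- (SE 0.21, 2.22-fold, limma adjusted p = 0.00380) and by 1.10 against WT (SE 0.20, adjusted p = 0.000906). With library sizes from non-mitochondrial reads the first was 0.76 (adjusted p = 0.0612), and the median of all genes was then -0.46. TG Me-X04- against WT was -0.05 (SE 0.18, 95% interval -0.43 to 0.34, adjusted p = 0.999).

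Of 11 listed surface proteins that galectins are known to bind, Trem2 and Nrp1 rose in TG Me-X04+ against TG Me-X04-. Trem2, the lipid and amyloid receptor of microglia, averaged 6.70 log2 RPKM in TG Me-X04+ beside 5.34 in TG Me-X04- and 5.20 in WT, a log2FC of 1.35 between the TG fractions (SE 0.23, 2.56-fold, limma adjusted p = 0.00210). With quantile normalization the Trem2 difference was 0.75 (adjusted p = 0.0731). Nrp1, a glycoprotein co-receptor of semaphorins and growth factors, had a log2FC of 1.37 (SE 0.27, 2.59-fold, adjusted p = 0.00657) and rose by 1.15 to 1.42 in each of 4 animals. Cd44, the hyaluronan receptor, rose against WT by 3.24 (SE 0.53, adjusted p = 0.000379), from 9 to 26 reads to 49 to 235. Against TG Me-X04- it had 1.69 (SE 0.56, adjusted p = 0.0946), and was called without TG Me-X04+ 1, at 2.07 (adjusted p = 0.0488), or without TG Me-X04- 1, at 2.03 (0.0468). With limma voom on the recovered reads it was also called, at 1.84 (adjusted p = 0.0189). Tlr4, the endotoxin receptor, fell against WT by 0.92 (SE 0.19, adjusted p = 0.00306) and had -0.62 against TG Me-X04- (adjusted p = 0.0938), which was called at -0.83 without TG Me-X04+ 1 (adjusted p = 0.0149). The difference between the fractions was also called with quantile normalization, at -0.83 (adjusted p = 0.0205). With library sizes from non-mitochondrial reads it was called at -1.01 (0.00906), beside a median of -0.46 over all genes.

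Havcr2 and Mertk, receptors of phagocytes, did not pass the test between the fractions. Havcr2 encodes Tim-3 and averaged 7.29 log2 RPKM in each TG group and 7.22 in WT, above Lgals9 itself in each group. Its log2FC between the TG fractions was -0.00 (SE 0.21, 95% interval -0.44 to 0.44, limma adjusted p = 0.999). Over 31 alternatives this value ranged from -0.696 to 0.139 and was never called. Mertk, a receptor for dying cells to which galectin-3 has been reported to bind, averaged 7.50, 7.47 and 7.36 log2 RPKM, with a log2FC between the fractions of -0.11 (SE 0.17, interval -0.46 to 0.24, adjusted p = 0.781). With quantile normalization Mertk had -0.79 (adjusted p = 0.0406) and was called. Itgam and Ptprc, which encode the Cd11b and Cd45 of the sort, are on the same list and had 0.22 (adjusted p = 0.866) and 0.66 (adjusted p = 0.122).

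The list for damaged lysosomes had 9 listed genes, with Lamp1 and Lamp2 on it as proteins of the lysosome and not as response genes. Lamp1 and Lamp2 rose in TG Me-X04+ against TG Me-X04-, Trim16 fell and 6 did not pass. Of all genes 3.44% were called higher and 2.06% lower. Lamp1 and Lamp2 encode the densely glycosylated proteins that line the lysosome. Lamp2 had a log2FC of 1.12 (SE 0.23, 2.17-fold, limma adjusted p = 0.00813), and with quantile normalization 0.49 (adjusted p = 0.148). Lamp1 had 0.88 (SE 0.21, 1.85-fold, adjusted p = 0.0185) and was not called without TG Me-X04- 5 (adjusted p = 0.0532), TG Me-X04+ 2 (0.0520) or TG Me-X04+ 3 (0.0522), with quantile normalization, at 0.08, or with library sizes from non-mitochondrial reads, at 0.49. Trim16, a ubiquitin ligase that works with galectin-3 at breached lysosomes, had 0 to 2 reads in TG Me-X04+, 9 to 43 in TG Me-X04- and 19 to 83 in WT. The fitted log2FC was -2.54 (SE 0.59, adjusted p = 0.0177), a value that depends on the prior added to the reads. The call was lost in 8 of 31 alternatives. The value was -1.44 with quantile normalization (adjusted p = 0.271), -1.16 with log2(RPKM + 0.1) (0.107) and -0.23 with log2(RPKM + 1) (0.438). It was -2.54 with only the 2 groups compared (0.0571), -2.45 with the replicate block (0.0637), -2.42 with the block on only the TG libraries (0.121) and -2.42 without TG Me-X04- 5 (0.0517), and Trim16 was not tested among genes with a mean of at least 0. Against WT, Trim16 fell by 3.38 (SE 0.55, adjusted p = 0.000405), and with log2(RPKM + 1) it had -0.42, under the fold threshold. Tfeb, the transcription factor of lysosome genes, had -1.42 against WT (SE 0.45, adjusted p = 0.0408), and -1.11 with the replicate block, which ties WT and TG animals by number only (adjusted p = 0.0555). Its call was also lost with limma voom (-1.40, adjusted p = 0.0619) and without any one of 10 libraries.

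**Figure D4:**
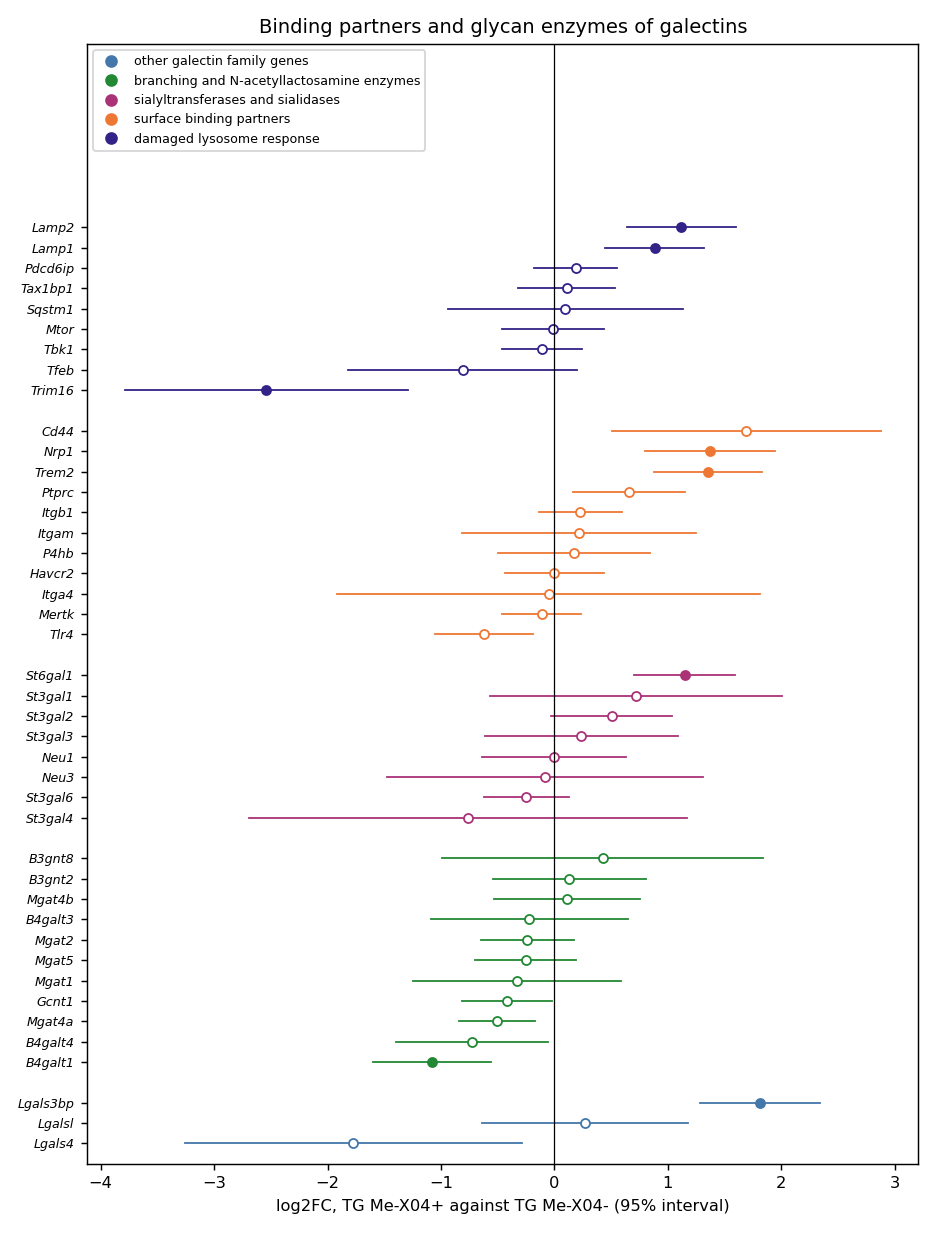
TG Me-X04+ against TG Me-X04- (horizontal axis, log2FC) with 95% intervals for the 42 listed genes of the 5 lists, ordered by value within each list. Filled points are the 8 DE genes and open points the others. Of the 3 largest rises, Lgals3bp (1.81) and Nrp1 (1.37) were DE and Cd44 (1.69) was not, and the lowest value was that of Trim16 (-2.54).

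The genes whose levels followed each galectin most closely over the 16 libraries were found by Pearson's r, as a description. The libraries share groups, sets and depth, and genes that differ between the sets can be alike for that reason alone. For Lgals9 they were H2-DMa (r = 0.94), which encodes a chaperone of MHC class II, Rab1b (0.93), a GTPase of vesicle traffic, and Rpl10-ps2 (0.93). H2-DMa ranged from 175 to 4332 reads. For Lgals8 they were Tut7 (0.91), an RNA uridylyltransferase, Rps6kb1 (0.90), the kinase S6K1, and Peak1 (0.90), a pseudokinase of the cytoskeleton. None of these was DE in TG Me-X04+ against TG Me-X04- or against WT.

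For the galectins with few reads the closest genes were partly of the same kind. For Lgals1 they were Rnaseh2c (r = 0.86), Pf4 (0.86), a chemokine of platelets and border macrophages with 0 to 48 reads, and Gm26558 (0.86). For Lgals3 they were Kcnj10 (0.84), a potassium channel with 66 to 409 reads, Psd2 (0.84), with 0 to 131 reads, and Spats2 (0.83). In sparse reads such correlations are no finding.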

How the data were processed

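Per the labels, the authors used Trim Galore 0.4.4 for trimming, STAR 2.5.4b for alignment to GRCm38 and featureCounts for counting on genes, filtered and scaled the result with edgeR 3.24.3, and deposited log2 RPKM values for 17951 genes in 16 libraries. The table also holds the authors' own comparisons (log2 fold changes and p-values), which were not used. It carried symbols for 12919 genes, and the reference named 4874 of the other 5032. The steps between low values of a library gave the reads behind them (100% of values whole within 0.01 reads, with a prior of 2 reads on average) and served for depth, floors and limma voom, while the values tested were the deposited ones. The authors' quasi-likelihood test needs counts and was not run.

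The log2 values were fitted with limma 3.58.1 in R 4.3.3 (variance trend, 3 groups, no covariate, two-sided, Benjamini-Hochberg over all genes). A DE gene had an adjusted p under 0.05 with a log2FC at least 0.7 in size. Pairs of galectins were compared by exact permutation tests in scipy 1.17.1 under Python 3.11.15, with matplotlib 3.10.9 for plots. Samples were grouped by their labels, which call them biological replicates. The TG fractions with the same number share an animal label and are paired by that label. Their deviations from the group means correlated (r of 0.292 to 0.329, 4 pairs). WT numbers are other animals, yet same-numbered libraries gave r of -0.272 to 0.315 for TG Me-X04- and WT. For TG Me-X04+ and WT r was -0.289 to 0.312. The correlation therefore cannot show the pairing, since libraries of the same set can correlate without sharing an animal.

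The text names the 4 members, the 3 genes closest to each by Pearson's r over 16 libraries, the other galectin family genes, list genes called between TG fractions or in TG Me-X04- against WT, Trem2, Havcr2 and Mertk. Mgat5, Cd44, Tlr4, B4galt4, Mgat4a, Gcnt1, Tfeb, Itgam and Ptprc were added after their values were seen. The members and lists were chosen with earlier results of these data known. Positions are from GENCODE M21, and the promoters and their build from RefSeq, where Lgals1 was not matched.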

Additional observations from a re-analysis of the deposited data

Results flagged for a closer look

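Lgals3bp in WT 3, at 4.09 log2 RPKM, lay further below the other WT libraries (4.43 to 4.65) than Dixon's test allows for 7 samples. It was the 1 value so marked of 21 gene and group combinations tested, and chance marks about 1 in 20. The value does not touch the order of the groups, since the lowest TG Me-X04- library had 5.20.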

How the results depend on the processing

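Leaving aside single libraries, 157 of 166 alternative values of the galectins kept their direction and stayed uncalled, and 9 changed sign, all of them values that were not called; the cause was not tested. For TG Me-X04+ against TG Me-X04-, Lgals3 (0.01) became -0.20 with library sizes from non-mitochondrial reads, -0.24 with the replicate block, -0.62 with the replicate block on only the TG libraries (chosen after seeing the data, as were the fits within sets), and -0.014 with a term for the sets. Lgals8 (0.13) became -0.24 with quantile normalization and -0.26 with library sizes from non-mitochondrial reads, and Lgals9 (-0.16) became 0.051 with library weights. For TG Me-X04+ against WT, Lgals9 (0.13) became -0.34 with quantile normalization and -0.17 with library sizes from non-mitochondrial reads. The second minus first step of Lgals8 (0.45) became -0.032 with the latter.

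Leaving out each library in turn, 182 of 192 values kept direction and call. Between the TG fractions Lgals3 ranged from -0.62 to 1.02, Lgals8 from -0.034 to 0.31 and Lgals9 from -0.37 to 0.051. Lgals1 ranged from -0.80 to 0.027 in TG Me-X04- against WT. In TG Me-X04+ against WT, Lgals9 ranged from -0.076 to 0.35 and Lgals3 from 1.61 to 3.21, where the highest, without TG Me-X04+ 1, was the one that became called.

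The number of DE genes between the TG fractions (986) was 470 with only the 2 groups compared, 2142 with a term for the sets and 552 to 1100 without 1 library, lowest without TG Me-X04- 5 and next without TG Me-X04+ 2 (624). In TG Me-X04- against WT (36) it was 175 with library weights, 13 with log2(RPKM + 1), 19 among genes with a mean of at least 0, 18 with the replicate block, 101 with a term for the sets and 19 to 35 without 1 library, lowest without TG Me-X04- 1 and next without TG Me-X04- 3 or TG Me-X04- 4 (23 each). In TG Me-X04+ against WT (2562) it was 3919 with a term for the sets and 2124 to 2605 without 1 library. With the replicate block, 0 instead of 1 list gene was called in TG Me-X04- against WT: Lgals3bp had 1.52 with an adjusted p of 0.0508, although WT and TG numbers are different animals. The paired fit changed no other call of a galectin; the changes for B4galt4, Trim16 and Tfeb stand with their values. Lgals1 and Lgals3 had libraries at 0 reads, each of which allows up to 3 reads.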
